A study of Rattus norvegicus with 6 samples.

Results

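The receptor tyrosine kinases outside the EGF receptor and Eph families were taken as a list of 34 genes, matched to the array by the platform's gene symbol with the brightest probe set kept per gene. Of these, 32 had a probe set among the 15037 genes tested, each a single one, while Flt3 and Ptk7 lacked one under their symbol and are not analysed here. The cells were airway basal cells grown from scrapings of the rat trachea, in EpiX, an epithelial culture medium, or in BEGM, a bronchial epithelial growth medium. The donors were wild-type Sprague Dawley males, 12 weeks old. Per the labels, tissue of 3 rats was combined into each of 3 cell lines, every line was split at isolation into both media, and RNA was taken after 8 days. Each culture gave 1 Affymetrix array, so there were 3 EpiX and 3 BEGM arrays, numbered here by the sample numbers 1, 2 and 3 of the source labels. The titles differ from these, since those of sample 2 carry a 3 and those of sample 3 carry no number. They still group the same EpiX and BEGM arrays together.

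Receptor tyrosine kinases are single-pass membrane proteins that bind a growth factor outside the cell, pair up, and phosphorylate each other's tail on tyrosine, which recruits adaptors and starts the MAP kinase and PI3 kinase cascades. Many of them divide the tissue between its compartments. Epithelia typically use Met, Mst1r, Ddr1 and the epithelial splice form of Fgfr2, and receive FGF and HGF made by the mesenchyme, while fibroblasts and muscle use the PDGF receptors, Ddr2 and Fgfr1. Which splice form of an FGF receptor was present was not analysed here. The genes were set into classes by such textbook roles: 5 epithelial, 7 mesenchymal, 5 vascular, 4 of blood cells, 8 neural, muscle and other restricted receptors, and 5 broadly expressed or other receptors.

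The RefSeq promoter windows of the 3 receptors that changed between the media are shown because these are the genes that passed the test, in opposite directions. Each runs 5′ to 3′ on the gene's strand from 250 bases before to 50 bases after the start, in build GRCr8, with the GC box (GGGCGG, or CCGCCC on the other strand) in capitals. The windows of Fgfr2 (gene ID 25022, chr1:194280865-194281164, minus strand), Fgfr3 (gene ID 84489, chr14:81227160-81227459, minus strand) and Axl (gene ID 308444, chr1:90423960-90424259, minus strand) were these.
Fgfr2: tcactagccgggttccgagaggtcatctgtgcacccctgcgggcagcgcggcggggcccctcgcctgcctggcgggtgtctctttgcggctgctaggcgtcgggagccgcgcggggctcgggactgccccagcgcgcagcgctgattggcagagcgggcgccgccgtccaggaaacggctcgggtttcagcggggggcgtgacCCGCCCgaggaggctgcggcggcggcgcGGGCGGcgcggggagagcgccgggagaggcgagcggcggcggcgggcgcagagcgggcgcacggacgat
Fgfr3: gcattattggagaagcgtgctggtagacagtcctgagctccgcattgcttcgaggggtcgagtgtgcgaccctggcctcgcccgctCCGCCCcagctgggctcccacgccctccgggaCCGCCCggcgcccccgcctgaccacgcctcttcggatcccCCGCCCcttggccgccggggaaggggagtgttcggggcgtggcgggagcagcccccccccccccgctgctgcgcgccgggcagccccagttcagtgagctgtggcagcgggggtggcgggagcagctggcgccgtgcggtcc
Axl: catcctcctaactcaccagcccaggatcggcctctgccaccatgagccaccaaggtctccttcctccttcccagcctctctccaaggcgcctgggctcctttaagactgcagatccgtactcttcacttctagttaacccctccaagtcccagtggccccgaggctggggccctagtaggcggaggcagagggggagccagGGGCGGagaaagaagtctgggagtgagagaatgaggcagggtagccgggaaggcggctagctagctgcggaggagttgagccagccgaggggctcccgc

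The Fgfr2 window held 2 GC boxes, the Fgfr3 window 3 and the Axl window 1. A GC box, the letters bound by Sp1-family factors, was found on either strand in 33.1% of all 33469 windows of this length and in those of 17 of the 25 measured receptors with a window. GC content was 77.7% for Fgfr2, 74.7% for Fgfr3 and 63.0% for Axl, against a median of 51.7% over all windows and of 65.8% over the 26 windows of the 25 measured receptors. No match of another motif overlapped the GC boxes shown, since none of these 3 windows held an AP-1 site (TGANTCA), a TEAD site (CATTCC or GGAATG) or the E-box of Snail and Zeb (CAGGTG or CACCTG), which occurred in 7.3%, 14.2% and 18.8% of all windows. The AP-1 letters were in the windows of Pdgfra and Tyro3, the TEAD letters in those of Ddr1, Fgfr4 and Musk, and the E-box in those of Ddr1, Insr, Met and Mst1r. Such matches describe letters only.

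The comparison asked how the medium changed receptor expression in cells of the same lines. In EpiX the FGF receptors Fgfr2 and Fgfr3 rose and the TAM receptor Axl fell. The other 29 measured receptors did not pass the test (limma, Benjamini-Hochberg adjusted p under 0.05 over all genes). Over all genes 5.78% were called, 2.63% higher and 3.15% lower in EpiX. Among the epithelial receptors 2 of 5 rose and 0 fell, with a median difference, EpiX minus BEGM, of 0.78 on the log2 scale. Among the mesenchymal receptors 1 of 7 fell and 0 rose, with a median of -2.80. The median over all genes tested was 0.00218.

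**Figure D1:**
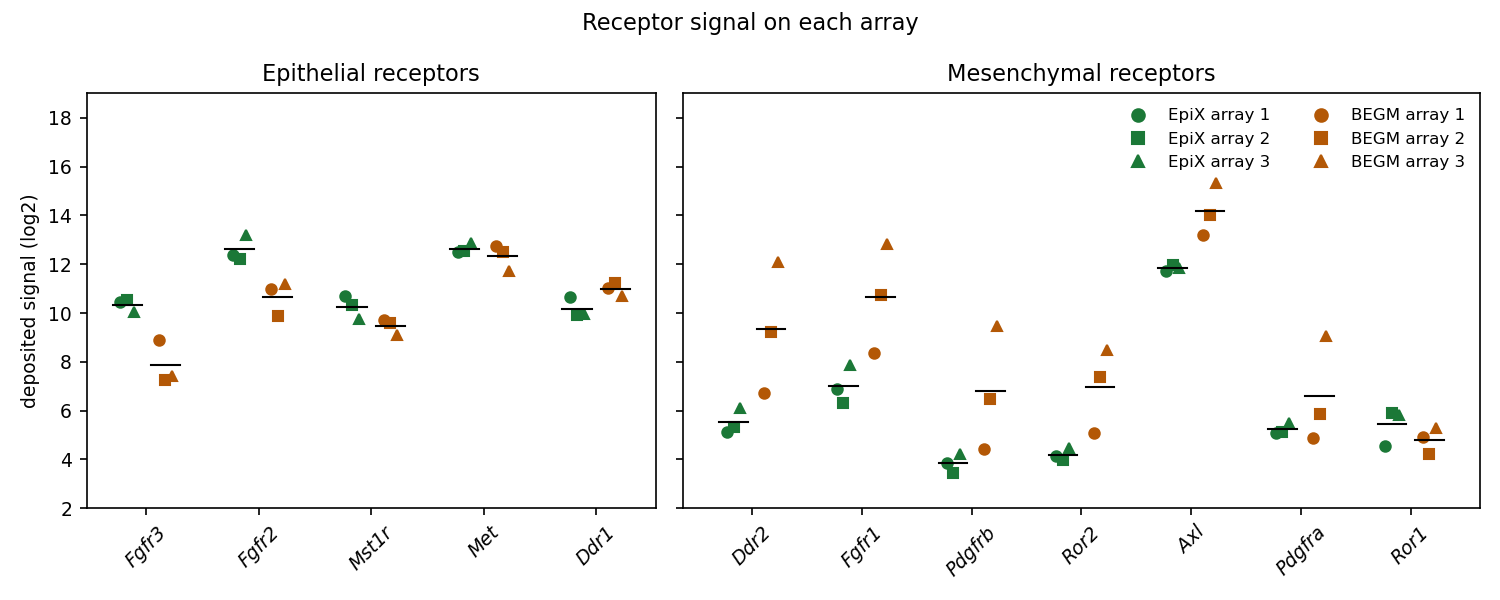
Deposited log2 signal (vertical axis) of the 5 epithelial and 7 mesenchymal receptors on each of the 3 EpiX and 3 BEGM arrays; each point is 1 array and each bar a group mean. Fgfr3, Fgfr2 and Mst1r lie higher on every EpiX array. The mesenchymal Ddr2, Fgfr1, Pdgfrb, Ror2 and Axl lie lower on every EpiX array, as does the epithelial Ddr1, by a narrow margin. The BEGM arrays spread widely for most mesenchymal receptors.

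Fgfr3, which binds FGF1 and FGF9 among others, had the largest rise of the list. Its signal was 10.44, 10.54 and 10.05 on the EpiX arrays 1, 2 and 3, against 8.89, 7.28 and 7.41 on the BEGM arrays. The groups did not overlap, and BEGM array 1 was the nearest to EpiX. The difference was 2.49 ± 0.43 (SE, n = 3 per medium; limma adjusted p = 0.0228), a 5.60-fold higher level if the deposited scale is base 2. Means were 10.35 ± 0.26 in EpiX and 7.86 ± 0.90 in BEGM (SD).

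Fgfr2, whose epithelial form is the receptor for FGF7 and FGF10, was at 12.40, 12.23 and 13.20 on the EpiX arrays and at 10.97, 9.87 and 11.19 on the BEGM arrays. Every EpiX array was higher than every BEGM array. It rose by 1.93 ± 0.40 (SE; limma adjusted p = 0.0424), or 3.81-fold, with same-numbered pairs differing by 1.42, 2.37 and 2.00.

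Axl, a receptor of the TAM family that is activated by Gas6 and is common in mesenchymal and migrating cells, was at 11.72, 11.99 and 11.86 on the EpiX arrays, against 13.19, 14.03 and 15.33 on the BEGM arrays. The EpiX arrays lay within a narrow band, and the BEGM arrays were all higher and more spread out. The difference was -2.32 ± 0.49 (SE; limma adjusted p = 0.0434), a 5.01-fold lower level in EpiX.

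All 3 changes kept their direction in each of 18 other settings, but their calls, like those over all genes, depended on which and how many arrays were kept. Over the 18 settings the difference ran from -2.82 to -1.75 for Axl, 1.53 to 2.19 for Fgfr2 and 2.09 to 3.00 for Fgfr3. Axl was called in 12 of the 18, Fgfr2 in 11 and Fgfr3 in 11. Without EpiX array 1, 2 or 3 the limma adjusted p was 0.141, 0.152 and 0.107 for Axl, 0.111, 0.118 and 0.101 for Fgfr2, and 0.0889, 0.115 and 0.0592 for Fgfr3. Each call was thus lost with any EpiX array left out. Without BEGM array 2 it was 0.142, 0.0965 and 0.094 for Axl, Fgfr2 and Fgfr3, and without BEGM array 3 it was 0.0567 for Fgfr3. Leaving out both arrays of number 2 gave 0.423, 0.278 and 0.366, and leaving out both of number 3 gave 0.0677, 0.0848 and 0.099. Fgfr2 had 0.0543 without both arrays of number 1. Calls over all genes also dropped, from 2.63% higher and 3.15% lower to 0.472% and 0.658% without EpiX array 1. They were 0.253% and 0.419% without EpiX array 2, and 1.2% and 1.58% without EpiX array 3. Without BEGM array 2 they were 0.539% and 0.738%, and without BEGM array 3 1.47% and 2.15%. Leaving out number 3 gave 0.632% and 1.12%, and leaving out number 2 gave 0 genes in either direction.

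Of the other epithelial receptors, Mst1r (Ron), the receptor for macrophage-stimulating protein, was at 10.69, 10.31 and 9.75 on the EpiX arrays and 9.72, 9.60 and 9.09 on the BEGM arrays. The groups did not overlap, although the highest BEGM value lay just below the lowest EpiX value. Its difference of 0.78 ± 0.28 (SE) did not pass (limma adjusted p = 0.158), but it did with the sample number as a block (adjusted p = 0.042), the lowest of a range that reached 0.58 over 18 settings.

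Ddr1, the collagen receptor of epithelia, differed in the other direction, at 10.68, 9.92 and 9.95 in EpiX against 11.03, 11.24 and 10.70 in BEGM. The groups were separated by a narrow margin, and the difference of -0.81 ± 0.25 (SE) did not pass (limma adjusted p = 0.121). Met, the receptor for HGF, was at 12.51, 12.53 and 12.86 in EpiX and 12.75, 12.50 and 11.73 in BEGM. These values overlapped, and the 95% interval of the difference ran from -0.35 to 0.95. Without the arrays of number 3 the Met difference was -0.11, so its direction rested on that number.

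The mesenchymal receptors had the largest differences of the list. Ddr2, the fibrillar collagen receptor of connective tissue, was at 5.11, 5.32 and 6.12 on the EpiX arrays, against 6.73, 9.24 and 12.08 on the BEGM arrays. The BEGM values spanned more than the gap between the media, and the difference of -3.83 ± 1.20 (SE) did not pass (limma adjusted p = 0.12). Fgfr1, the FGF receptor typical of mesenchyme, was at 6.88, 6.32 and 7.87 in EpiX and at 8.38, 10.75 and 12.85 in BEGM. Its order on the BEGM arrays was the same as that of Ddr2, with array 1 lowest and array 3 highest, and its difference was -3.64 ± 1.04 (adjusted p = 0.0956).

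Pdgfrb, the PDGF-B receptor of pericytes and fibroblasts, was at 3.86, 3.45 and 4.24 in EpiX, against 4.43, 6.49 and 9.48 in BEGM, where array 1 lay close to the EpiX arrays (-2.95 ± 1.13, SE; limma adjusted p = 0.184). Ror2, a receptor for WNT5A, was at 4.13, 3.98 and 4.46 in EpiX and at 5.07, 7.39 and 8.50 in BEGM (-2.80 ± 0.78; adjusted p = 0.0902). Pdgfra, the PDGF receptor of fibroblasts, was at 5.10, 5.11 and 5.48 in EpiX and at 4.90, 5.88 and 9.07 in BEGM (-1.39 ± 0.97; adjusted p = 0.462). For Pdgfra only BEGM array 3 stood clearly above the other 5 arrays. Ror1, a relative of Ror2, differed in the other direction, with a difference of 0.62 ± 0.43 (adjusted p = 0.459) and overlapping groups.

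These 6 uncalled mesenchymal receptors had BEGM standard deviations of 0.55 for Ror1 and of 1.75 to 2.68 for the other 5, against 0.22 to 0.78 over all 6 in EpiX. With the sample number as a block, Fgfr1 (adjusted p = 0.0337), Ddr2 (0.042) and Ror2 (0.0471) also fell by limma. In that fit 3 receptors of all classes were called higher and 5 lower, beside 3.94% and 4.39% of all genes. Their adjusted p ran over the 18 settings from 0.00588 to 0.565 for Fgfr1, from 0.00756 to 0.567 for Ddr2 and from 0.00121 to 0.56 for Ror2. Without BEGM array 1, 5 of the 7 mesenchymal receptors fell, namely Axl, Ddr2, Fgfr1, Pdgfrb and Ror2. When both number 3 arrays were left out, 0 fell by limma, beside 0.632% of all genes higher and 1.12% lower. There 13 of the 32 receptors had an unadjusted p under 0.05, as had 2660 of all 15037 genes. Without BEGM array 1 the receptors called were 2 higher and 6 lower, beside 6.57% and 7.32% of all genes.

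Groups that did not overlap were found for 12 of the 32 receptors, 3 higher and 9 lower in EpiX, against 13.5% of all genes higher and 14.5% lower. The 9 lower ones were the mesenchymal Ddr2, Fgfr1, Pdgfrb, Ror2 and Axl, the vascular Flt4 and Flt1, the epithelial Ddr1 and the neural Ret. A difference of at least 1 log2 unit was found for 2 receptors higher in EpiX, beside 3.92% of all genes, and for 7 lower, beside 5.49% of all genes. These 7 were 6 mesenchymal receptors and Flt4.

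**Figure D2:**
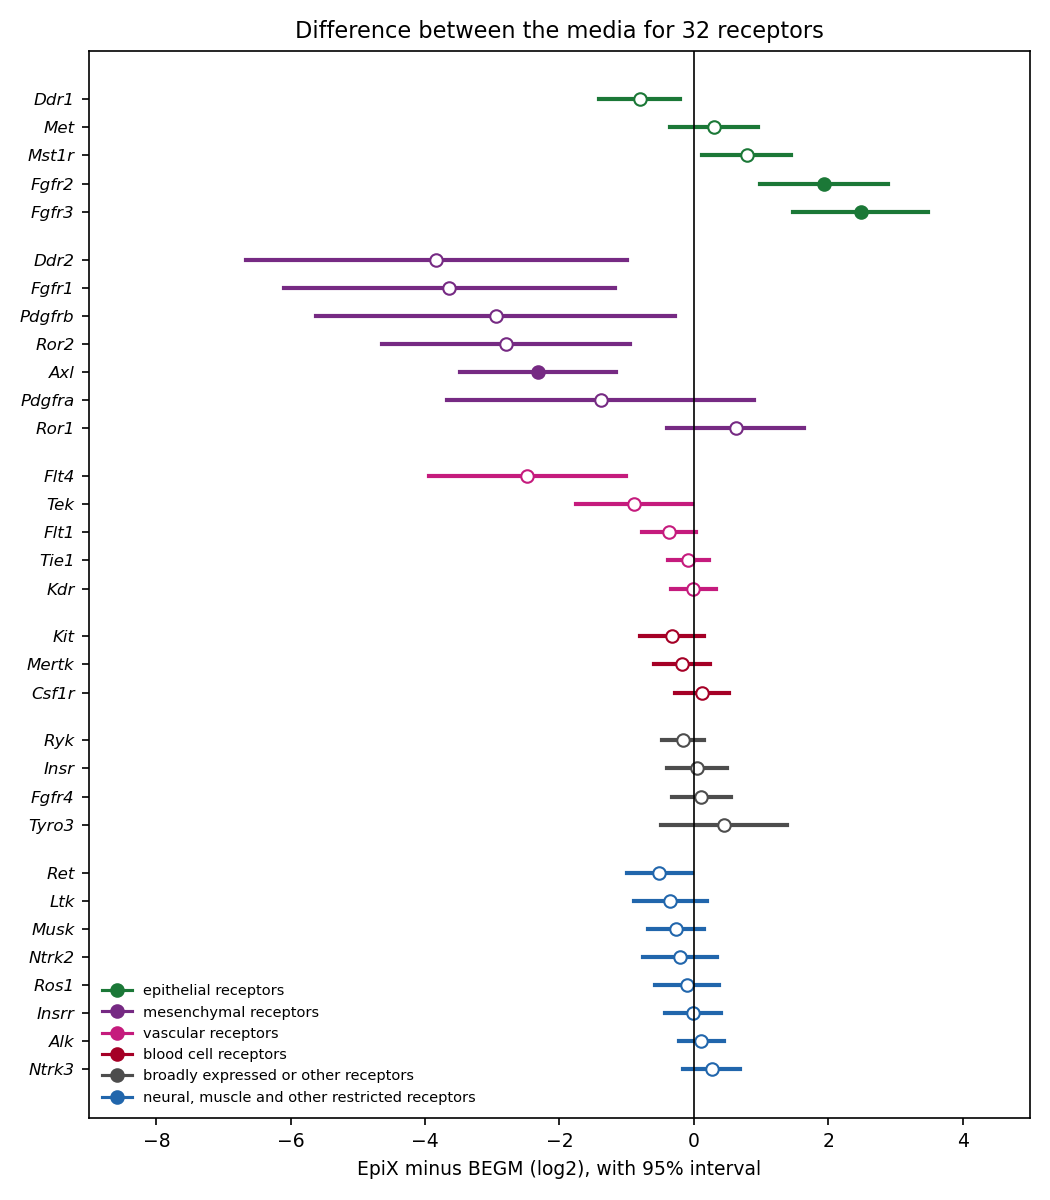
Difference between the media, EpiX minus BEGM in log2 units (horizontal axis), for the 32 measured receptors grouped by class, with the unadjusted 95% limma interval; filled points passed the test and open points did not. The intervals of Ddr2, Fgfr1 and Pdgfrb are the widest, and the restricted receptors lie close to 0.

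The mean signals of the fibroblast and smooth muscle markers also lay lower in EpiX. The 8 measured fibroblast markers averaged 5.87 to 6.26 on the EpiX arrays and 6.96 to 9.60 on the BEGM arrays. By limma 0 of 8 passed, beside 5.78% of all genes. With the number as a block 3 fell (Col1a2, Lum and Thy1), beside 4.39% of all genes lower. Groups that did not overlap were found for 5, all lower in EpiX, beside 14.5% of all genes. The collagen gene Col1a1 was at 5.82, 5.14 and 5.56 in EpiX, against 7.44, 8.32 and 12.34 in BEGM, where array 3 was also the highest. Over the 5 smooth muscle markers, 3 fell (Cnn1, Tagln and Acta2), beside 3.15% of all genes. The mean of the 5 ran from 6.27 to 6.71 in EpiX and from 9.28 to 10.36 in BEGM. Des and Myh11 lay between 4.09 and 4.87 on all arrays. The mean of the 7 mesenchymal receptors followed the same order on the BEGM arrays as that of the fibroblast markers, at 6.80, 8.28 and 10.37 beside 6.96, 7.47 and 9.60. The smooth muscle mean was also lowest on BEGM array 1 but highest on array 2, at 9.28, 10.36 and 10.29. The part of fibroblasts or muscle cells in the receptor differences was not tested, and in RNA of a whole culture fewer cells of a type and less RNA per cell cannot be told apart.

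Of the defining markers of the labelled cell type, Krt14 was high, at 16.75 to 17.13 in EpiX and 16.38 to 16.85 in BEGM, as was Tp63, at 14.62 to 14.80 in EpiX and 12.23 to 12.93 in BEGM. Krt5 was not analysed here. The 5 basal markers measured averaged 13.36 to 13.66 in EpiX and 11.72 to 12.42 in BEGM. Beside 2.63% of all genes, 2 of them rose, Tp63 and Krt15. These differed by 2.15 and 4.12, while Krt14, Itga6 and Ngfr differed by 0.29, 0.16 and 0.34 and did not pass. Ngfr lay below the rest of the list, between 4.69 and 5.37 on all arrays. Of the 5 general epithelial markers 1 fell, Krt18, beside 3.15% of all genes. The 5 averaged 13.62 to 13.81 in EpiX and 14.12 to 15.12 in BEGM. Krt18 differed by -3.68, and Krt8, Cdh1 and Epcam by -0.74, -0.63 and -0.44. Krt19 differed in the other direction, by 0.89. The rise of Fgfr2 and Fgfr3 thus stood beside a higher mean of the basal markers and a lower mean of the general epithelial markers, and the part of either in it was not tested.

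**Figure D3:**
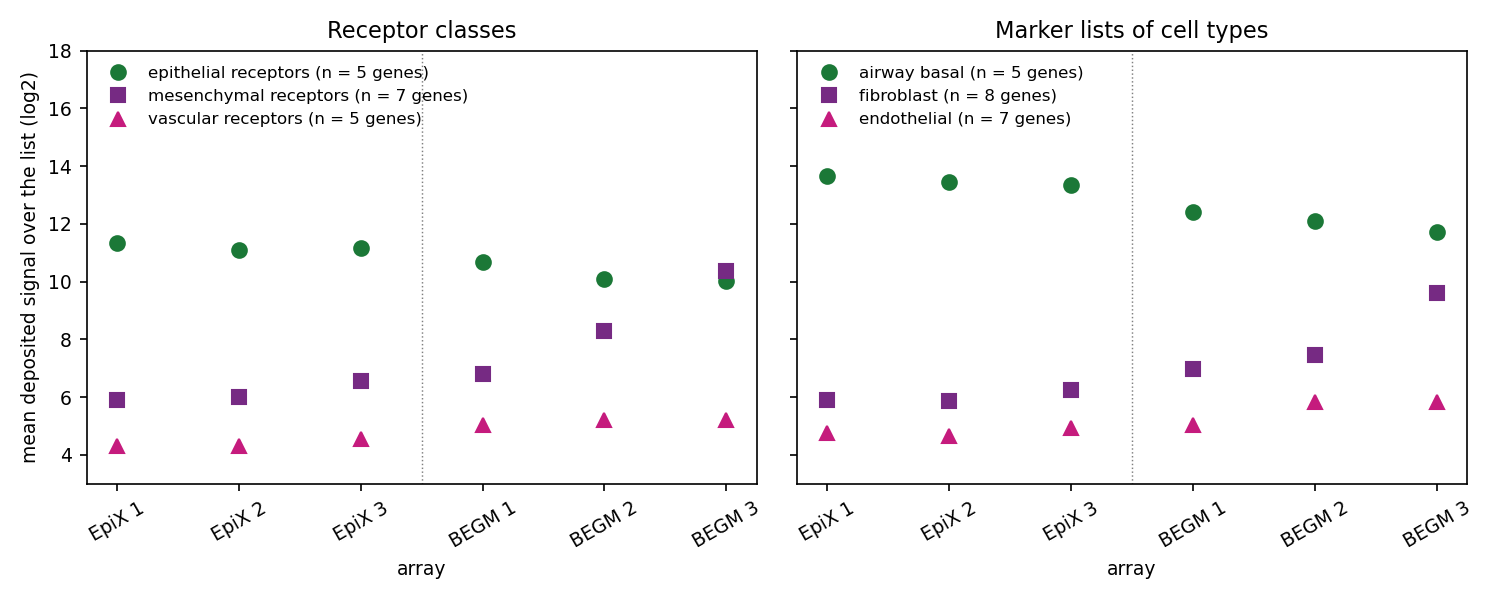
Mean deposited log2 signal (vertical axis) on each of the 6 arrays, for 3 receptor classes on the left and for the basal, fibroblast and endothelial marker lists on the right; each point is the mean over the list's measured genes, to be read across arrays within a list. The mesenchymal receptors and the fibroblast markers are both highest on BEGM array 3 and both lowest among the BEGM arrays on array 1.

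Among the 5 vascular receptors 0 passed, with a median difference of -0.38. Flt4, the VEGF-C receptor of lymphatic endothelium, was at 4.09, 4.06 and 4.40 on the EpiX arrays and at 5.07, 7.54 and 7.37 on the BEGM arrays. The groups did not overlap, and the EpiX mean of 4.18 lay under 4.50, the limit of the dimmest 25% of genes. The difference was -2.48 ± 0.62 (SE; limma adjusted p = 0.0685), and Flt4 fell with the number as a block (adjusted p = 0.039, in a range of 0.000263 to 0.508 over 18 settings).

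Tek, the angiopoietin receptor, was at 4.10, 4.54 and 4.95 in EpiX and at 6.14, 4.84 and 5.29 in BEGM, with BEGM array 1 the highest (-0.90 ± 0.37, SE; limma adjusted p = 0.209). Flt1, a VEGF receptor, differed by -0.38 ± 0.17 (adjusted p = 0.254). Kdr, the main VEGF receptor of blood vessels, was at 4.59, 4.46 and 4.39 in EpiX and 4.64, 4.41 and 4.42 in BEGM, and Tie1 lay between 3.90 and 4.11 on all arrays. Both were under the limit of the dimmest 25% in both media, as were 23.1% of all genes. The 95% interval for Kdr ran from -0.34 to 0.33, and its sign turned with quantile normalization (0.0346).

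Endothelial markers stood beside these values as follows. Of 7 measured, 0 passed, beside 5.78% of all genes. Their mean was 4.67 to 4.93 in EpiX and 5.03 to 5.84 in BEGM. The defining genes Vwf (3.41, 3.71 and 3.74 in EpiX; 3.78, 3.46 and 3.33 in BEGM) and Cdh5 (3.52, 3.71 and 3.96 in EpiX; 3.79, 4.90 and 4.16 in BEGM) were dim. Esam, a junction protein of endothelium, was at 6.33, 5.87 and 6.14 in EpiX and 6.87, 8.44 and 7.57 in BEGM, where it had the same order over the arrays as Flt4. Its groups did not overlap, and the difference of -1.51 did not pass (limma adjusted p = 0.0685). Eng, which fibroblasts also express, was at 5.41, 5.39 and 5.99 in EpiX against 6.18, 9.20 and 11.04 in BEGM, while Pecam1, Cldn5 and Emcn overlapped between the media and differed by -0.41, 0.10 and 0.05. The part of endothelial cells in the Flt4 difference was not tested.

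The 3 measured receptors of blood cells had low signals, and none of them passed by limma. Kit, the stem cell factor receptor, was at 4.20, 4.53 and 4.34 in EpiX and at 4.49, 5.06 and 4.48 in BEGM (-0.32 ± 0.20, SE; limma adjusted p = 0.411). Csf1r, the macrophage colony-stimulating factor receptor, lay between 3.43 and 3.88 on all arrays, and Mertk, the TAM receptor of macrophages, between 3.55 and 4.05. Neither of these 2 passed (adjusted p = 0.732 and 0.62). The leukocyte marker Ptprc was likewise dim, at 3.78, 3.82 and 4.08 in EpiX and 4.11, 4.01 and 4.14 in BEGM. It was 1 of 4 among 7 leukocyte markers whose means lay under the dim limit of 4.50 in both media. Cd68 of that list was bright, at 11.36, 11.08 and 9.17 in EpiX and 8.65, 9.62 and 10.22 in BEGM. Its groups overlapped, and the difference of 1.04 did not pass (limma adjusted p = 0.40). Lyz2 was also higher in EpiX, by 0.42, without passing, and the other 5 were lower in EpiX. Of the 7 markers 1 fell, Cd74 (limma adjusted p = 0.041, or 0.0526 under the number block), beside 3.15% of all genes. The list's mean was 5.09 to 5.26 in EpiX and 5.12 to 5.46 in BEGM.

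The broadly expressed receptors were close between the media. Ryk, a Wnt co-receptor with an inactive kinase, was at 12.95, 13.01 and 13.07 in EpiX and 13.06, 13.26 and 13.22 in BEGM, with a 95% interval of -0.48 to 0.15. Insr, the insulin receptor, had an interval of -0.40 to 0.50 around a difference of 0.05, whose sign turned in 5 of 18 settings. Tyro3, the third TAM receptor, was at 9.07, 8.55 and 8.00 in EpiX and 8.85, 7.85 and 7.57 in BEGM, higher in EpiX in all 3 same-numbered pairs (0.45 ± 0.40, SE; limma adjusted p = 0.567). Within the TAM family, therefore, Axl fell while Tyro3 and Mertk did not pass, which is no test of a difference between them. Fgfr4 differed by 0.11 ± 0.19 (adjusted p = 0.779), so of the 4 FGF receptors 2 rose, and Fgfr1 and Fgfr4 did not pass.

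Of the 8 neural, muscle and other restricted receptors 0 passed. Their differences ran from -0.52 for Ret, the receptor of the GDNF family, to 0.27 for Ntrk3, the neurotrophin-3 receptor. Ret was at 4.22, 4.86 and 4.65 in EpiX against 4.97, 5.31 and 5.003 in BEGM, with groups separated by a narrow margin (limma adjusted p = 0.195). Ltk (-0.35), Musk (-0.27), Ntrk2 (-0.21), Ros1 (-0.10), Insrr (-0.02) and Alk (0.11) overlapped between the media. Ntrk2, Ntrk3 and Insrr were under the limit of the dimmest 25% in both media. The 4 measured markers of nerve, Schwann and neuroendocrine cells averaged 4.84 to 5.03 in EpiX and 4.98 to 5.31 in BEGM. Of these 0 of 4 passed, beside 5.78% of all genes.

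The ligands and activators of these receptors formed a list of 48 genes, of which 47 were measured. Of these 3 rose, 4 fell and 40 did not pass, beside 2.63% of all genes higher and 3.15% lower, with a median difference of -0.06. The falls were those of Pdgfb, Fgf1, Bdnf and Wnt5b, and the rises those of Fgf9, Vegfa and Gas6. Pdgfb, a ligand of both PDGF receptors, had the largest difference, at 5.16, 5.20 and 5.68 in EpiX against 8.64, 11.52 and 10.90 in BEGM. All EpiX arrays lay well below all BEGM arrays (-5.01 ± 0.68, SE; limma adjusted p = 0.0122). Pdgfc, another ligand of this family, was at 7.77, 7.94 and 8.46 in EpiX and 9.33, 10.23 and 12.05 in BEGM (-2.48 ± 0.64; adjusted p = 0.0743, or 0.023 under the number block), and Pdgfa differed by -0.40 ± 0.24 (adjusted p = 0.386).

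FGF ligands moved in both directions. Fgf1, which binds all FGF receptors, fell to 5.42, 5.84 and 5.52 in EpiX, against 8.34, 10.42 and 10.25 in BEGM (-4.08 ± 0.53, SE; limma adjusted p = 0.0102). Fgf9 was at 7.06, 7.68 and 6.79 in EpiX against 4.81, 5.28 and 4.92 in BEGM, and rose by 2.18 ± 0.26 (adjusted p = 0.00834). Fgf9 was called in 17 of the 18 settings, the exception being that without the arrays of number 2 (adjusted p = 0.17).

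Fgf2 was at 5.24, 6.13 and 5.67 in EpiX and 7.26, 9.71 and 11.63 in BEGM (-3.85 ± 0.98, SE; limma adjusted p = 0.0729, or 0.0337 under the number block). Fgf7, the mesenchymal ligand of epithelial Fgfr2, was at 5.24, 5.11 and 5.56 in EpiX and 5.94, 9.96 and 11.26 in BEGM (-3.75 ± 1.22; adjusted p = 0.131). Its BEGM values had the same order over the arrays as the fibroblast marker means given above. Fgf10 stood out on BEGM array 3, at 6.50, against 4.28 to 4.66 on the other 5 arrays. The other Fgf genes listed (Fgf5, Fgf11, Fgf12, Fgf13, Fgf16, Fgf18, Fgf20, Fgf21 and Fgf22) did not pass and differed by -0.46 to 0.73.

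Gas6, the ligand of Axl, went opposite to its receptor, at 11.13, 11.24 and 11.18 in EpiX against 10.19, 10.32 and 10.61 in BEGM. The groups did not overlap, and it rose by 0.81 ± 0.16 (SE; limma adjusted p = 0.0319). Pros1, the other TAM ligand, was at 9.38, 9.18 and 8.11 in EpiX and 9.65, 9.48 and 10.27 in BEGM (-0.91 ± 0.37; adjusted p = 0.208). Vegfa, the main VEGF, was at 15.20, 15.02 and 14.71 in EpiX against 14.16, 14.15 and 14.17 in BEGM and rose by 0.82 ± 0.16 (adjusted p = 0.036), while its receptors Kdr and Flt1 did not pass. Without EpiX array 1, 2 or 3, Gas6 had an adjusted p of 0.104, 0.148 and 0.0857.

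Bdnf, the ligand of Ntrk2, fell to 4.35, 4.40 and 4.73 in EpiX, against 6.08, 7.87 and 8.58 in BEGM (-3.02 ± 0.58, SE; limma adjusted p = 0.0329). Wnt5b was at 5.74, 5.90 and 5.93 in EpiX against 7.57, 7.26 and 6.76 in BEGM (-1.34 ± 0.22; adjusted p = 0.0211). Wnt5a, a ligand of Ror2, was at 8.26, 9.01 and 9.67 in EpiX and 7.57, 6.59 and 8.53 in BEGM and did not pass (1.42 ± 0.54; adjusted p = 0.18). Hgf and Mst1, the ligands of Met and Mst1r, lay between 4.81 and 5.51 and between 3.81 and 4.11 on all arrays and did not pass. Hgfac, the protease that activates HGF, was at 6.77, 7.16 and 6.69 in EpiX and 9.93, 9.05 and 7.40 in BEGM (-1.92 ± 0.58; adjusted p = 0.113).

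**Figure D4:**
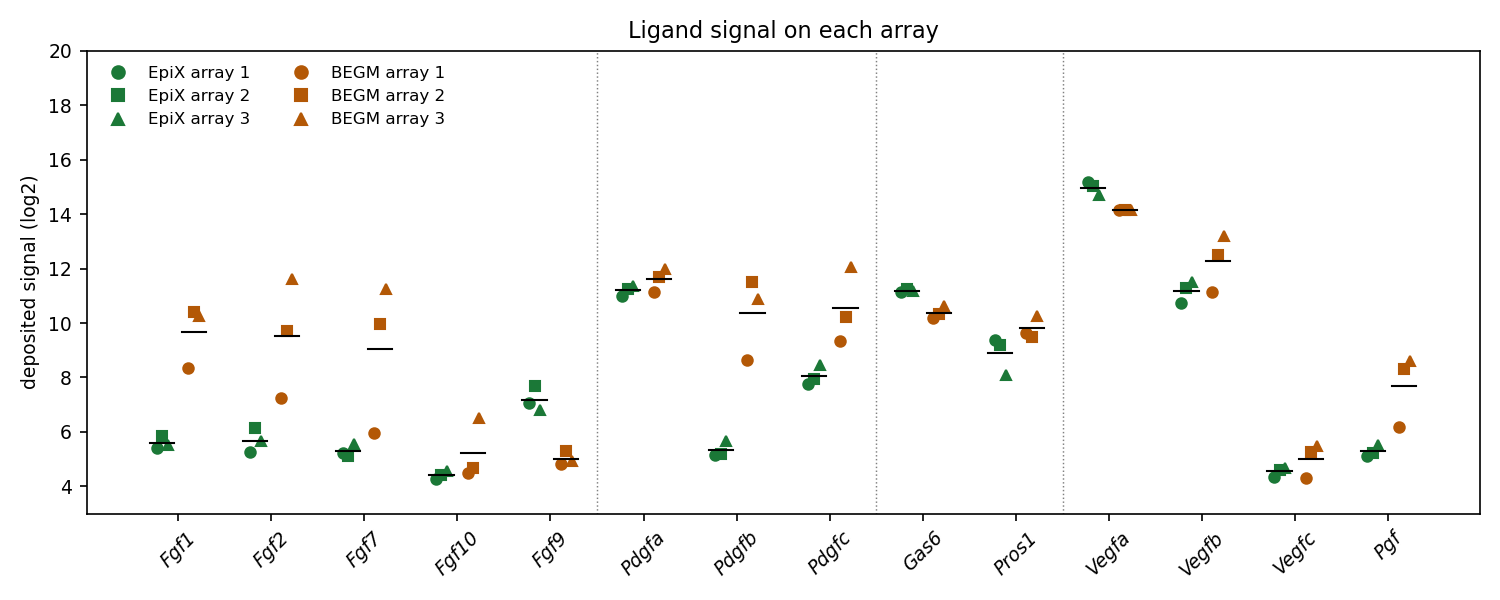
Deposited log2 signal (vertical axis) of 14 ligands of the FGF, PDGF, TAM and VEGF receptors on each of the 3 EpiX and 3 BEGM arrays; each point is 1 array and each bar a group mean. Fgf1, Fgf2, Fgf7, Pdgfb, Pdgfc, Pgf and Pros1 lie lower and Fgf9, Gas6 and Vegfa higher on every EpiX array. Of the lower ones only Fgf1 and Pdgfb passed the test, and Fgf2 and Fgf7 spread widely among the BEGM arrays.

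Co-receptors, decoys and receptor-processing genes numbered 21, with 19 measured, of which 2 rose, 1 fell and 16 did not pass, beside the same 2.63% and 3.15% of all genes, at a median difference of -0.10. Sdc4, a heparan sulphate proteoglycan that presents FGF to its receptors, fell to 10.30, 10.16 and 10.13 in EpiX, against 11.62, 11.88 and 12.15 in BEGM (-1.68 ± 0.17, SE; limma adjusted p = 0.00571). Fgfbp1, a carrier that releases FGF from the matrix, was at 15.38, 15.86 and 15.49 in EpiX against 14.65, 14.28 and 13.57 in BEGM and rose by 1.41 ± 0.29 (adjusted p = 0.041). Lrp4, the agrin receptor that works with Musk, rose by 1.01 ± 0.17 (adjusted p = 0.0222). The decoy receptor Fgfrl1, which lacks a kinase, was at 6.49, 6.60 and 6.52 in EpiX and 7.50, 9.16 and 10.38 in BEGM (-2.48 ± 0.64; adjusted p = 0.0756, or 0.0465 under the number block), and Gfra1, the GDNF co-receptor of Ret, differed by -3.20 ± 1.47 (adjusted p = 0.259).

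Adaptors, docking proteins and regulators numbered 32, with 27 measured, of which 1 rose, 2 fell and 24 did not pass, again beside 2.63% and 3.15% of all genes, at a median difference of 0.12. Shc1, an adaptor that links many receptors to Ras, was at 12.005, 12.01 and 11.92 in EpiX against 12.71, 12.82 and 13.14 in BEGM and fell by 0.91 ± 0.16 (SE; limma adjusted p = 0.0231). Grb14, an adaptor that restrains the insulin receptor, fell by 2.12 ± 0.46 (adjusted p = 0.0471, and 0.0539 with quantile normalization, in a range of 0.00245 to 0.423 over 18 settings). Socs3, a feedback inhibitor of cytokine signalling, was at 7.36, 7.32 and 7.35 in EpiX against 5.74, 5.37 and 6.10 in BEGM and rose by 1.61 ± 0.20 (adjusted p = 0.00976). The core adaptor Grb2 lay between 13.84 and 14.19 on all arrays, with a difference of -0.000567 that did not pass and whose sign turned in 6 of 18 settings.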

How the data were processed

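Biotin-labelled RNA was run on Affymetrix arrays, per the labels' protocols. The submitters' processing notes list the Transcriptome Analysis Console with no version. The authors' deposited table gives log2 signals for 24834 probe sets, 1 value per array. How the signals were made is not given in the sources used here, so base, normalization and centring stay unknown, and folds assume base 2. Detection calls were not used, and the number of arrays limits the precision. Medians over tested genes were 6.90 to 6.93 on the EpiX arrays and 6.98 to 7.13 on the BEGM arrays.

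The platform's gene annotation, possibly outdated, gave 15049 probe sets 1 symbol, and the brightest was kept for each of 15037 genes. A linear model with medium as its only term was fitted in R 4.3.3 by limma 3.58.1, helped by statmod 1.5.0 (lmFit, eBayes, 2-sided), with Benjamini-Hochberg adjustment over all 15037 genes and a threshold of 0.05. On data simulated for EpiX against BEGM over 15037 genes, 88% of changes of 2 log2 units and 99% of those of 4 were recovered. The changed genes were drawn at random from all genes, with independent noise at each gene's own residual spread, the same in both media. These shares therefore do not apply to genes spread widely among the BEGM arrays, such as Ddr2 and Fgfr1. Nor do they apply to called genes with unequal spread, such as Axl (SD 0.13 in EpiX, 1.08 in BEGM) and Fgfr3 (0.26 and 0.90). Plots were made with matplotlib 3.10.9. Promoter sequences are from RefSeq, build GRCr8.

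The receptors and gene lists were chosen with earlier results of these data known, so counts and medians stand beside those of all genes, with no test of a list. All receptors are reported, with array values for called ones and those differing by 1 log2 unit or more; array values of other receptors were added after being seen. Partner genes are named where called or as FGF or TAM ligands, and others (Pdgfa, Pdgfc, Wnt5a, Hgf, Mst1, Hgfac, Fgfrl1, Gfra1, Grb2) were picked after their values were seen. The main p-values set each difference against the spread between cultures of the same medium, partly shared across genes by limma. Pairing by sample number enters only in the block settings.

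No label ties a sample number to a line, and the titles number the arrays of sample 2 as 3 and give those of sample 3 no number. Titles and sample numbers do group the same EpiX and BEGM arrays together. Over genes, departures from the group mean correlated between same-numbered arrays at 0.32 (number 1), -0.01 (number 2) and 0.32 (number 3), and between other pairs at -0.37 to 0.16. Departures from a group mean cancel within each medium, so these correlations depend on each other and do not settle the pairing. The number as a block was therefore an alternative. Further alternatives were a random block, quantile normalization, median centring, a filter on the dimmest 25% of genes, array weights, trended robust variance, probe set means, a threshold of 0.1, and leaving out each array and each number.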

Additional observations from a re-analysis of the deposited data

How the results depend on the processing

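The calls of Axl, Fgfr2 and Fgfr3 remained under both replicate blocks, quantile normalization, median centring, the filter on dim genes, the trended variance, array weights, probe set means and the threshold of 0.1. The count of receptors lower in EpiX was 1 in the main analysis, 5 with the replicate block of the sample number (Axl, Ddr2, Fgfr1, Flt4 and Ror2, with Mst1r then the third receptor higher), 2 with the random replicate block, 6 with array weights and 4 at a threshold of 0.1, while the share of all genes called lower was 3.15%, 4.39%, 4.29%, 6.86% and 5.76% in that order. Partner genes lower numbered 7, against 12 with the replicate block (gaining Csf1, Fgf2, Fgfrl1, Pdgfc and Pgf, with Artn and Grb7 gained among those higher), 11 with the random block, 15 with array weights and 13 at 0.1, and those higher numbered 6, against 10 with array weights. Leaving out single arrays or both arrays of a number gave 0 to 2 receptors higher, 0 to 6 lower, 0 to 9 partner genes higher and 0 to 20 lower, beside 0 to 6.57% of all genes higher and 0 to 7.32% lower. The 0 counts are limma's, with 3 to 13 receptors and 18 to 42 partner genes at an unadjusted p under 0.05 in these fits. The median of the epithelial receptors then ran from 0.56 to 1.03, that of the mesenchymal ones from -3.75 to -1.75 and that of the vascular ones from -0.56 to -0.25, and the vascular median was -0.90 without the dimmest 25%, which drops dim vascular receptors. Of the 16 called receptors and partner genes, leaving out EpiX array 1, 2 or 3 kept 2, 2 and 6 calls, leaving out BEGM array 1, 2 or 3 kept 16, 3 and 10, and leaving out both arrays of number 1, 2 or 3 kept 12, 0 and 4. Median centring moved the median difference of all genes to 0.13 and the calls over all genes to 560 higher and 409 lower, against 395 and 474, while the receptor counts stayed at 2 and 1. Signs turned for 14 of 67 receptors and partner genes run through these settings, none of them called. With median centring these were Grb2 (0.13), Hgf (0.0209), Insrr (0.11), Kdr (0.12), Ros1 (0.0253) and Tie1 (0.0472), with quantile normalization Insrr (0.0187) and Kdr (0.0346), and with array weights Grb2 (0.0141), Kdr (0.0112) and Fgf12 (-0.0511). Without single arrays or numbers, differences ran from -0.0444 to 0.31 for Csf1r, -0.20 to 0.26 for Fgf11, -0.10 to 0.21 for Fgf12, -0.0191 to 0.22 for Fgf22, -0.0173 to 0.22 for Fgfr4, -0.12 to 0.0979 for Grb2, -0.31 to 0.0396 for Hgf, -0.11 to 0.29 for Insr, -0.18 to 0.20 for Insrr, -0.0629 to 0.069 for Kdr, -0.11 to 0.57 for Met, -0.41 to 0.14 for Ntrk2 and -0.29 to 0.0397 for Ros1. The cause of these changes was not tested, beyond the fewer arrays or genes that a setting leaves.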
